A study of Homo sapiens with 18 samples.

Results

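The question addressed here was whether NFYA siRNA altered the response of LNCaP cells to androgen. For every gene, the change with R1881 under NFYA siRNA was set against the change with R1881 under control siRNA, and the difference of these 2 differences was tested (the interaction). The rule took the 12 libraries of the table of control and NFYA siRNA, out of 18 samples in the series. LNCaP is an established prostate cancer line that responds to androgen, and R1881 is a synthetic androgen. Cells were deprived of steroids for 48 h in serum treated with charcoal (5%), in a medium free of phenol red, and were harvested 24 h after the addition of 10 nM R1881 or of vehicle (96% ethanol). All 12 libraries came from siRNA-transfected cells: a non-targeting pool (siC, called control here) or a pool against NFYA (siNFYA). The 4 groups were control vehicle, control R1881, siNFYA vehicle and siNFYA R1881, with 3 libraries each. All siRNA against NFYA came as 1 pool, so an effect of its targets other than NFYA cannot be told apart from an effect of NFYA. Nothing in the labels says that the libraries of a group were separate cultures, and the p-values measure the spread between these libraries.

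NFYA is the regulatory subunit of NF-Y, a factor that binds the CCAAT box of many promoters together with NFYB and NFYC. CCAAT boxes are well known from promoters of cell-cycle genes, of lipid synthesis genes and of genes of the stress responses. Androgen raises luminal secretory genes such as KLK3 and lowers others, among them the UGT2B15 and UGT2B17 genes, whose enzymes inactivate androgens by adding glucuronic acid. ATF4 is the factor of the integrated stress response that raises amino acid transporters, aminoacyl-tRNA synthetases and serine synthesis when amino acids are short or the endoplasmic reticulum is under load.

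The libraries held 4416653 to 6411869 estimated counts. The luminal markers summed to between 5286 and 5713 CPM (counts per 1000000, scaled between libraries) in the vehicle libraries and between 15780 and 16260 CPM in the R1881 libraries, with either siRNA. Basal, neuroendocrine, stromal and blood or endothelial markers each summed to 19.02 CPM or less in every library, and KRT5, KRT17, TP63, INSM1, CD3E, CD14, CDH5 and HBB had no counts in any of the 12. The library siNFYA vehicle replicate 3 stood apart: 2.85% of its counts lay in the rRNA-like gene AC010970.1, against 0.0902 to 0.424% elsewhere. Its chi-square per degree of freedom against the other libraries of its group was 9.35 and 12.4, where other pairs within groups gave 1.33 to 2.29. AC010970.1 was among the genes that entered this measure, and how much of it that gene makes up was not tested. The share of counts in transcripts annotated as retained introns was 2.18 ± 0.0419% (control vehicle), 1.96 ± 0.0155% (control R1881), 2.87 ± 0.201% (siNFYA vehicle) and 2.62 ± 0.0536% (siNFYA R1881; SD, n = 3).

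NFYA (ENSG00000001167, chr6:41072945-41099976, GRCh38) had 68.6, 71.4 and 73.6 CPM in control vehicle, 84.6, 89.8 and 86.8 in control R1881, 48.2, 44.2 and 46.9 in siNFYA vehicle and 58.9, 57 and 53.7 in siNFYA R1881. Every siNFYA library was below every control library of the same treatment. The NFYA siRNA changed it by log2 -0.62 in vehicle (adjusted p = 4.06e-07) and -0.62 in R1881 (adjusted p = 2.37e-07), so that the transcript was lowered and not lost. The interaction was -0.003 (SE 0.0903, adjusted p = 0.998). The interactions of the partner subunits were -0.14 (adjusted p = 0.726) for NFYB and 0.10 (adjusted p = 0.779) for NFYC. A lower level of a transcript in these bulk libraries cannot tell fewer cells that make it from less RNA per cell.

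The interaction was called in 91 of 12601 genes (0.722%; adjusted p under 0.05), 42 higher (0.333%) and 49 lower (0.389%). Higher means that the log2 change with R1881 was greater (more positive) with siNFYA than with control siRNA. For scale, R1881 against vehicle was called in 62.9% of the genes with control siRNA and in 62.1% with siNFYA. The NFYA siRNA was called in 13.5% in vehicle and 5.96% in R1881. The called differences were small, with a median size of 0.373 on the log2 scale, and 8 of the 91 were at least 2-fold. Of those 8, 5 stayed under 5 CPM in every group (AC017083.3, CDRT4, AC023055.1, AMIGO3 and SRP9P1, named after their values were seen), and no fold is given for them. The pseudogene H3F3AP4, the clone-labelled AC008764.4 and SLX1A made up the rest. The median over all genes tested was -0.015, and 1508 genes (11.967%) had an unadjusted p under 0.05. With library totals in place of TMM scaling the split turned to 52 higher and 32 lower, with the RLE size factors to 53 and 39, with DESeq2 to 63 and 48, and without siNFYA vehicle replicate 3 to 74 and 32. A fit of log2(TPM + 1) values called 1 gene, UGT2B11.

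**Figure D1:**
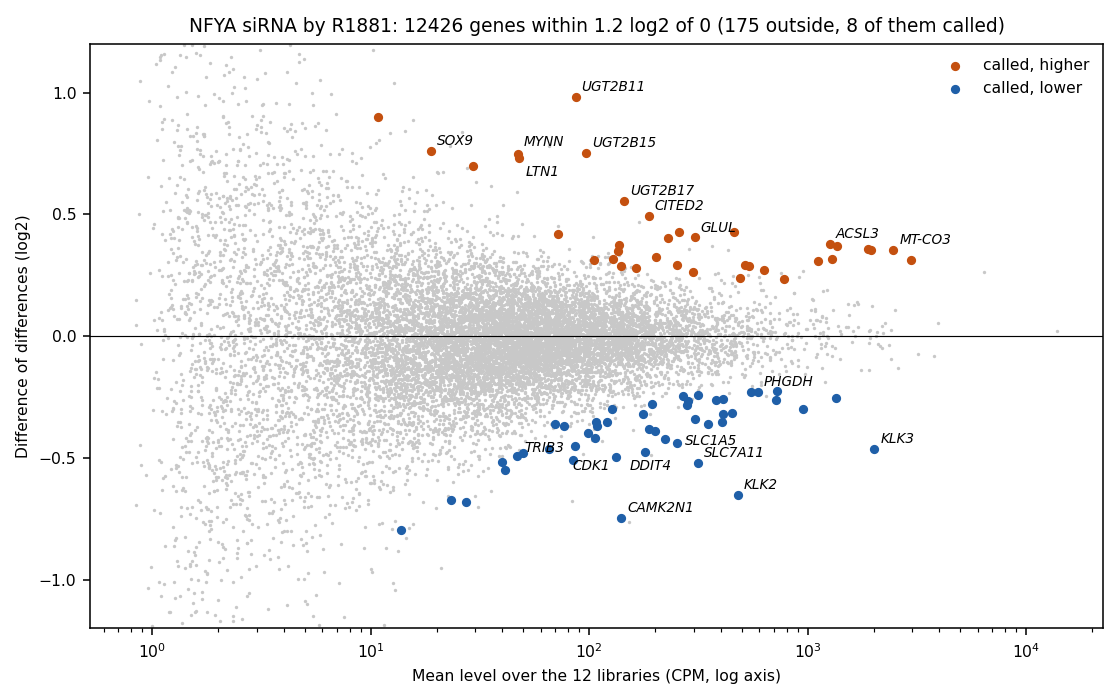
Difference of differences (log2, vertical axis) against the mean level over the 12 libraries (CPM, log axis). Each dot is a gene, coloured where called. The plot holds the 12426 genes within 1.2 of 0, and 175 lie outside it, 8 of them called. The called genes lie within 1 of 0 in the plot and most are well expressed, with UGT2B11 at the top and ADRA2A and CAMK2N1 at the bottom.

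Of the 34 lists, the ATF4 amino acid response had the most calls. Of its 34 measured members 15 were lower (0.389% of all genes tested), and 1, the glutamine transporter SLC38A2, was higher (0.333% of all genes). The median interaction of the list was -0.316, against -0.015 over all genes, and 33 of the 34 values lay below 0. R1881 raised 29 of the members with control siRNA (median log2 change 0.724; 32.1% of all genes were higher) and 26 with siNFYA (median 0.459; 31.2% of all genes). In vehicle, siNFYA raised 23 of the 34 and lowered none (median 0.267), where 6.67% of all genes were higher and 6.79% lower. In R1881, siNFYA raised 2 and lowered 3 (median -0.06; 2.63 and 3.33% of all genes). The difference of differences is built from these 4 values, so they describe it and do not support it.

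The transporter SLC1A5, which takes up glutamine, had 114, 105 and 114 CPM in control vehicle, 387, 389 and 384 in control R1881, 149.8, 138 and 141 in siNFYA vehicle and 371, 366 and 365 in siNFYA R1881. The siNFYA vehicle libraries were all above the control vehicle libraries, and the siNFYA R1881 libraries were all below the control R1881 libraries. The difference between siRNAs was called in vehicle (0.37, adjusted p = 6.91e-06) but not in R1881 (-0.073, adjusted p = 0.273). The change of SLC1A5 with R1881 was 1.80 with control siRNA and 1.36 with siNFYA, an interaction of -0.44 (SE 0.0583, adjusted p = 0.000386). SLC7A11, the cystine importer, had 182, 207 and 186 CPM in control vehicle, 414, 457 and 441 in control R1881, 257, 236 and 234 in siNFYA vehicle and 358, 406 and 394 in siNFYA R1881, the same order of groups as SLC1A5, with an interaction of -0.52 (SE 0.0732, adjusted p = 0.000648). DDIT4, an inhibitor of mTORC1 signalling, had 149.8, 146 and 155 CPM in control vehicle, 188, 214 and 187 in control R1881, 191, 202 and 189.9 in siNFYA vehicle and 179, 189 and 179 in siNFYA R1881. R1881 raised it by 0.38 with control siRNA, and with siNFYA the value was -0.093 (adjusted p = 0.109), an interaction of -0.48 (SE 0.0703, adjusted p = 0.000731).

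MTHFD2, the mitochondrial folate enzyme, had 155, 163 and 165 CPM in control vehicle, 269, 288 and 279 in control R1881, 195, 189.8 and 198 in siNFYA vehicle and 232, 264 and 254 in siNFYA R1881. All siNFYA vehicle libraries again exceeded the control vehicle libraries, and the interaction was -0.42 (SE 0.0655, adjusted p = 0.00125). The serine synthesis gene PSAT1 had 338, 350.5 and 333 CPM in control vehicle, 447, 465 and 456 in control R1881, 391, 403 and 414 in siNFYA vehicle and 398, 455 and 414 in siNFYA R1881, where the R1881 libraries of both siRNAs overlapped; its interaction was -0.35 (SE 0.0583, adjusted p = 0.00249). PHGDH, which starts serine synthesis, had an interaction of -0.23 (adjusted p = 0.0195). The remaining called members were CEBPB (C/EBP beta, -0.52 (adjusted p = 0.03)), TRIB3 (a pseudokinase induced by ATF4, -0.45 (adjusted p = 0.0105)), STC2 (stanniocalcin 2, -0.40 (adjusted p = 0.0301)), SLC7A1 (the arginine importer, -0.39 (adjusted p = 0.00201)) and GDF15 (a secreted stress cytokine, -0.38 (adjusted p = 0.0189)). To them came PCK2 (mitochondrial PEP carboxykinase, -0.34 (adjusted p = 0.00541)), XPOT (the tRNA exporter, -0.32 (adjusted p = 0.00201)), GARS (glycyl-tRNA synthetase, -0.31 (adjusted p = 0.00541)) and SLC3A2 (heavy chain of amino acid transporters, -0.28 (adjusted p = 0.0284)). SLC38A2 had 293, 299 and 287 CPM in control vehicle, 754, 734 and 748 in control R1881, 285, 270.2 and 261 in siNFYA vehicle and 816, 858 and 866 in siNFYA R1881, with an interaction of 0.29 (adjusted p = 0.00628). ATF4 itself was at -0.17 (adjusted p = 0.176), ASNS, the asparagine synthetase, at -0.20 (adjusted p = 0.0903), ATF3 at -0.45 (adjusted p = 0.112) and CHAC1 at -0.33 (adjusted p = 0.386), none of them called. Of the members called lower, SLC3A2 passed in 3 of the 12 fits that leave out a library. CEBPB and STC2 passed in 5, PHGDH in 6, GDF15 in 8 and the rest in all 12. The number of members called lower ran from 10 (without control R1881 replicate 2, or without siNFYA R1881 replicate 3) to 17 (without siNFYA R1881 replicate 1), and was 11 without siNFYA vehicle replicate 3. It was 0 in the log2(TPM + 1) fit, where the median was -0.315.

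**Figure D2:**
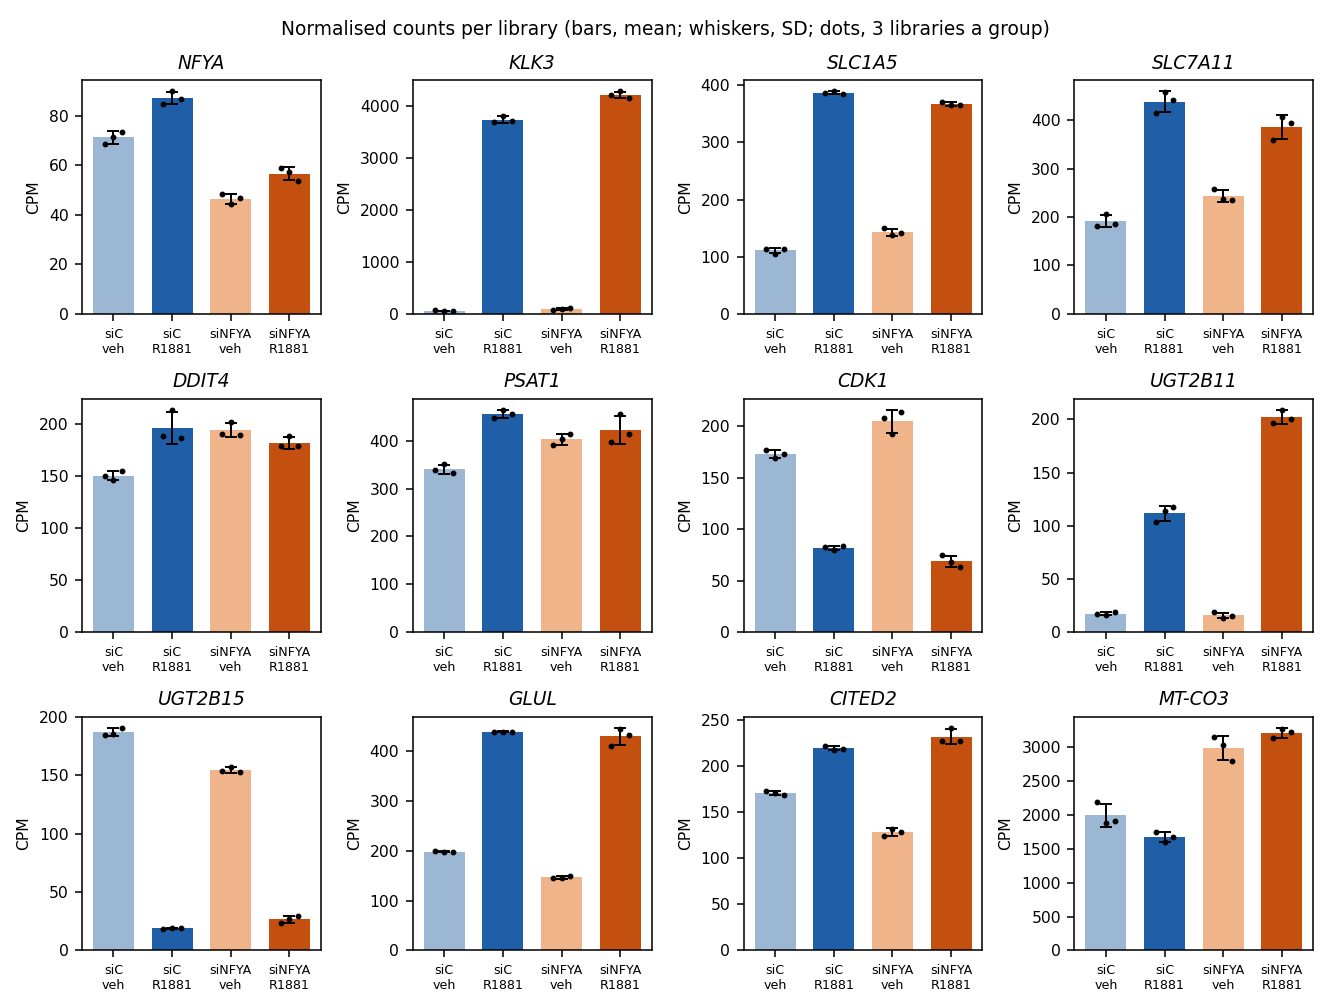
Normalised counts (CPM, from 0) of 12 genes in control (siC, blue) and siNFYA (orange) cells given vehicle (veh, light) or R1881 (dark). Bars are means, whiskers the SD, dots the 3 libraries. SLC1A5, SLC7A11, DDIT4 and PSAT1 were higher in siNFYA vehicle than in control vehicle, whereas GLUL and CITED2 were lower there and UGT2B11 differed in R1881.

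NF-Y binds the letters CCAAT, so promoter sequences were searched for them, and the stretches of 6 of the 15 called-lower members of the ATF4 list are printed. Windows from 250 bases before to 50 after the RefSeq start (GRCh38.p14) were at hand for 9613 of the 12601 genes tested. CCAAT on either strand was found in 37.1% of them (3566 windows). Among the 15 ATF4-list members called lower, 13 had a window and 10 of these (76.9%) held CCAAT, while TRIB3, XPOT and SLC3A2 did not. Over the whole list it was 15 of 26 windows (57.7%), and in the measured cell division genes 51 of 80 (63.7%). Of the genes called lower outside the ATF4 list 9 of 26 windows held it (34.6%), of those called higher 9 of 22 (40.9%), and of the genes that siNFYA lowered in vehicle 241 of 682 (35.3%). A window was at hand for 76.3% of all genes tested and for only 52.4% of the genes called higher, and no test was made between these shares. The letters stood in genes of both directions, so GLUL and ACSL3, called higher, are printed too, and TRIB3 and UGT2B15 are shown as members with no match. The letters TGATGNAA (either strand), a form of the element bound by C/EBP-ATF pairs, were in 2 of the same 13 windows and 1.61% of all. The last motif was added after the data had been seen, and a match is a description of letters, not a bound site. Each stretch is the 150 bases before the start, 5′ to 3′ on the strand of the gene, with CCAAT or its reverse complement ATTGG in capitals.
PSAT1 (chr9:78296975-78297124, plus strand): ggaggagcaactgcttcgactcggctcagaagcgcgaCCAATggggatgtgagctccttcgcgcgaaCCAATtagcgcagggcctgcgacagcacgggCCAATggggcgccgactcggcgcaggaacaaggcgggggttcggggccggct
DDIT4 (chr10:72273774-72273923, plus strand): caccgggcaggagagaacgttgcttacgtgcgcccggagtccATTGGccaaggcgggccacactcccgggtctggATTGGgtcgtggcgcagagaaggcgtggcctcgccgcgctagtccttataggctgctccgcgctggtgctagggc
SLC1A5 (chr19:46788595-46788744, minus strand): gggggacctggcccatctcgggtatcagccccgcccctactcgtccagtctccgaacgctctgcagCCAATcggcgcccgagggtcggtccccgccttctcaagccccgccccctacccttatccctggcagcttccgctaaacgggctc
MTHFD2 (chr2:74198465-74198614, plus strand): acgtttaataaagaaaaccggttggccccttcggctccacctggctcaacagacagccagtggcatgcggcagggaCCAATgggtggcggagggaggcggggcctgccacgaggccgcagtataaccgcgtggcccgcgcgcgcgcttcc
STC2 (chr5:173328415-173328564, minus strand): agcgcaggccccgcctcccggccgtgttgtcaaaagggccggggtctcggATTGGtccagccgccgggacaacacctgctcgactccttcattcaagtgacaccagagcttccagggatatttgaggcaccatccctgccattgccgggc
TRIB3 (chr20:381145-381294, plus strand): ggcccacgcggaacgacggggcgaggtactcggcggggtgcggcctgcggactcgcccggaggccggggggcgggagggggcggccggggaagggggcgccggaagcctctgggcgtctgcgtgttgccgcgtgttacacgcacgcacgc
GLUL (chr1:182391791-182391940, minus strand): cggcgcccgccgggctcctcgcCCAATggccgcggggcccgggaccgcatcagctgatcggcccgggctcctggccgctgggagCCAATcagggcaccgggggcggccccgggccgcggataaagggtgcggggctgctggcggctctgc
ACSL3 (chr2:222860886-222861035, plus strand): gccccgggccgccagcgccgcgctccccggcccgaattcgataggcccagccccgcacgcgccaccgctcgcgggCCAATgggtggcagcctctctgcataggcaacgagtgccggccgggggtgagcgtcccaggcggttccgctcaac
UGT2B15 (chr4:68670653-68670802, minus strand): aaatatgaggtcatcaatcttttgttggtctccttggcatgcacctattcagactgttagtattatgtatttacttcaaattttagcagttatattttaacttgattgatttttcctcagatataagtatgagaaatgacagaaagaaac
PSAT1 carried 3 matches in its stretch, DDIT4 and GLUL 2 each, SLC1A5, MTHFD2, STC2 and ACSL3 1 each, and TRIB3 and UGT2B15 0.

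Serine, glycine and one-carbon metabolism overlapped with that list by 3 measured genes. Of its 21 measured members 4 were lower (0.389% of all genes tested) and none higher (0.333%). The 4 were MTHFD2, PSAT1, PHGDH and CBS, the first enzyme of transsulfuration. The median was -0.19, and 19 values lay below 0. CBS had 218, 216 and 210.1 CPM in control vehicle, 296, 296 and 284 in control R1881, 275, 258 and 265 in siNFYA vehicle and 299, 311 and 306 in siNFYA R1881, an interaction of -0.24 (adjusted p = 0.0248), but its counts are uncertain because the near-identical copy CBSL can share its reads. Between 2 and 7 members were lower when any 1 library was left out, and 0 in the log2(TPM + 1) fit. Of genes outside the lists, IARS (isoleucyl-tRNA synthetase) was at -0.26 (adjusted p = 0.00679) and PYCR1 (proline synthesis) at -0.24 (adjusted p = 0.0352), both named after their values were seen. CBS passed in 5 of the 12 fits that leave out a library, IARS in 11 and PYCR1 in 3.

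Genes of cell division fell with R1881 under both siRNAs. R1881 lowered 43 of 44 G2/M genes with control siRNA (median -1.04; 30.8% of all genes were lower) and 43 with siNFYA (median -1.18; 31% of all genes). The interaction was called lower for 2 of the 44, KIF2C and CDK1 (0.389% of all genes were called lower). The median was -0.18 (-0.015 over all genes), and 38 values lay below 0. In DNA replication and S phase 1 of 53 was lower, the helicase subunit gene MCM5 (again 0.389% of all genes). That list had a median of -0.191 and 46 values below 0. CDK1, the kinase that drives mitosis, had 176, 169 and 173 CPM in control vehicle, 82.4, 79.5 and 83.7 in control R1881, 208, 192 and 214 in siNFYA vehicle and 74.6, 67.7 and 63.6 in siNFYA R1881. It was highest in siNFYA vehicle and lowest in siNFYA R1881, with no overlap between groups, and its interaction was -0.49 (SE 0.0806, adjusted p = 0.00201). The mitotic kinesin KIF2C had 37.9, 37.2 and 36.3 CPM in control vehicle, 15.5, 16.1 and 13.8 in control R1881, 47.3, 43.9 and 43.5 in siNFYA vehicle and 10.8, 12.3 and 11.2 in siNFYA R1881, the same order, and -0.68 (adjusted p = 0.0248). For KIF2C the difference between siRNAs in R1881 was not called (-0.41, adjusted p = 0.0613). MCM5 was at -0.49 (adjusted p = 0.0301). Outside the lists TCF19 (-0.55 (adjusted p = 0.0416)), IQGAP3 (-0.67 (adjusted p = 0.0416)) and the lamin genes LMNB1 (-0.37 (adjusted p = 0.0421)) and LMNB2 (-0.42 (adjusted p = 0.0188)) were lower. MCM5 passed in 4 of the 12 fits that leave out a library, TCF19, IQGAP3 and LMNB1 in 3, LMNB2 in 7, KIF2C in 9 and CDK1 in all 12.

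For most androgen target genes no difference in the R1881 response was called. Of 62 measured androgen-induced genes 1 was higher (ACSL3) and 2 were lower (KLK2 and KLK3). Over all genes tested, 0.333% were higher and 0.389% lower. The median interaction of the list was 0.038. FKBP5, a chaperone of steroid receptors, had 75.4, 65.8 and 66 CPM in control vehicle, 2745, 2760 and 2709 in control R1881, 74.1, 67.8 and 69.2 in siNFYA vehicle and 2744, 2874 and 2812 in siNFYA R1881. Its interaction was 0.01 (SE 0.068, adjusted p = 0.979). TMPRSS2, a serine protease, was at 0.06 (SE 0.066, adjusted p = 0.788). KLF5 was at -0.091 (SE 0.279, adjusted p = 0.946).

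KLK3, which encodes prostate-specific antigen, had 65.6, 54.6 and 58.6 CPM in control vehicle, 3677, 3804 and 3707 in control R1881, 83.5, 89.8 and 106 in siNFYA vehicle and 4193, 4271 and 4140 in siNFYA R1881. The siNFYA libraries lay above the control libraries in both treatments, by log2 0.64 in vehicle (adjusted p = 7.47e-07) and 0.17 in R1881 (adjusted p = 0.0313). Because the rise was proportionally greater in vehicle, the change with R1881 was 5.97 with control siRNA and 5.50 with siNFYA, an interaction of -0.46 (SE 0.0831, adjusted p = 0.00541). The lower fold change thus went with a higher level in R1881. Without siNFYA vehicle replicate 3, the highest of its group at 106 CPM, the value was -0.34 and was still called. Among KLK3 transcripts, the main protein-coding one (ENST00000326003) averaged 38.4 ± 0.402 CPM in control vehicle and 51.7 ± 6.99 in siNFYA vehicle, and a retained-intron one (ENST00000596333) 3.48 ± 1.35 and 11.4 ± 2.52 (SD, n = 3).

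KLK2, the neighbouring kallikrein, had 7.17, 4.89 and 5.2 CPM in control vehicle, 830.4, 874 and 843 in control R1881, 11.5, 10.2 and 12.2 in siNFYA vehicle and 1080, 1028 and 1059 in siNFYA R1881. It too was higher with siNFYA in both treatments without overlap, and its interaction was -0.65 (SE 0.152, adjusted p = 0.0416). This call held in 2 of the 12 fits that leave out a library and was lost with library totals and with voom quality weights. The retained-intron transcript ENST00000595173 of KLK2 averaged 115 ± 2.36 CPM in control R1881 and 213 ± 5.63 in siNFYA R1881. Further retained-intron transcripts of KLK2 averaged 255 ± 5 and 266 ± 2.39 (ENST00000600755) and 95.7 ± 9.2 and 130 ± 19.5 (ENST00000597461). The protein-coding ENST00000358049 averaged 136 ± 10.2 and 146 ± 6.12. SLC41A1, a magnesium carrier outside the lists, had 69, 61.5 and 65.7 CPM in control vehicle, 754, 759.7 and 736 in control R1881, 59.4, 51.3 and 65.3 in siNFYA vehicle and 533, 508 and 523 in siNFYA R1881. All its siNFYA R1881 libraries were below the control R1881 libraries, with an interaction of -0.36 (adjusted p = 0.0297), which held in 4 of the 12 such fits.

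The 27 measured androgen-repressed genes gave 3 higher (UGT2B11, UGT2B15 and UGT2B17; 0.333% of all genes) and 1 lower (CAMK2N1; 0.389% of all genes), with a median of 0.118. UGT2B15 had 185, 186 and 191 CPM in control vehicle, 18.7, 19.3 and 19.1 in control R1881, 154, 158 and 152 in siNFYA vehicle and 23.6, 26.9 and 29.4 in siNFYA R1881. In vehicle siNFYA lay below control and in R1881 above it, so the fall with R1881 was -3.29 with control siRNA and -2.54 with siNFYA, an interaction of 0.75 (SE 0.107, adjusted p = 0.000655). UGT2B17, which acts on the same hormones, had 286, 286 and 275 CPM in control vehicle, 42.5, 38 and 35.3 in control R1881, 219, 207 and 219 in siNFYA vehicle and 40.6, 45 and 43.9 in siNFYA R1881, with the R1881 libraries of the siRNAs overlapping, and an interaction of 0.55 (SE 0.0903, adjusted p = 0.00201).

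UGT2B11 stood in the list of repressed genes but rose with R1881 here. It had 17.3, 16.1 and 18.9 CPM in control vehicle, 104, 114 and 117 in control R1881, 18.5, 13.8 and 15.6 in siNFYA vehicle and 196, 209 and 199.9 in siNFYA R1881. The vehicle libraries overlapped, and every siNFYA R1881 library exceeded every control R1881 library. The change with R1881 was 2.68 with control siRNA and 3.66 with siNFYA, an interaction of 0.98 (SE 0.134, adjusted p = 0.000476). These UGT2B genes lie together on chromosome 4 and are close in sequence, so that the assignment of reads between them is uncertain. Their relatives were not called: UGT2B10 at 0.22 (adjusted p = 0.819) and UGT2B28 at 0.18 (adjusted p = 0.93). CAMK2N1, an inhibitor of CaM kinase II, had 271, 280.1 and 283 CPM in control vehicle, 20.4, 23.6 and 24 in control R1881, 238, 264 and 245 in siNFYA vehicle and 12.3, 13.4 and 10.3 in siNFYA R1881. It was lower with siNFYA in both treatments, and more so in R1881, with an interaction of -0.75 (SE 0.133, adjusted p = 0.00541).

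Other genes were called higher across several functions. CITED2, a regulator that binds CBP and p300, had the smallest adjusted p of all. It had 173, 170.3 and 168 CPM in control vehicle, 221, 217 and 218 in control R1881, 124, 132 and 128 in siNFYA vehicle and 227, 241 and 226 in siNFYA R1881: siNFYA was below control in vehicle, without overlap, and above it in R1881, where the difference between siRNAs was not called (adjusted p = 0.262). Its change with R1881 was 0.36 with control siRNA and 0.85 with siNFYA, an interaction of 0.49 (SE 0.0585, adjusted p = 0.000163). GLUL, the glutamine synthetase, had 199, 198 and 198 CPM in control vehicle, 439, 438 and 439.5 in control R1881, 145, 146 and 149.5 in siNFYA vehicle and 411, 445 and 432 in siNFYA R1881. Its siNFYA vehicle libraries were all below the control vehicle libraries and the R1881 libraries overlapped, with an interaction of 0.41 (SE 0.0524, adjusted p = 0.000373). ACSL3, which activates fatty acids and was the called member of the fatty acid synthesis list (1 of 26), had 209, 207 and 197 CPM in control vehicle, 2212, 2243 and 2185 in control R1881, 168, 174 and 179.9 in siNFYA vehicle and 2369, 2524 and 2430 in siNFYA R1881, with an interaction of 0.38 (SE 0.0547, adjusted p = 0.000693).

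MYNN, a zinc-finger protein gene, had 73.7, 85.2 and 77.4 CPM in control vehicle, 26.3, 25.3 and 27.5 in control R1881, 52.5, 55.6 and 50.8 in siNFYA vehicle and 29, 31.1 and 29.2 in siNFYA R1881. LTN1, the ubiquitin ligase of stalled ribosomes, had 76.5, 82.8 and 81.6 CPM in control vehicle, 15.1, 17.6 and 16 in control R1881, 70.9, 76.4 and 65.7 in siNFYA vehicle and 24.2, 22.6 and 25.1 in siNFYA R1881. Both fell with R1881, and less so with siNFYA: the interactions were 0.75 (SE 0.116, adjusted p = 0.00125) and 0.73 (SE 0.128, adjusted p = 0.00502). MYNN transcripts are given as means ± SD in control vehicle, control R1881, siNFYA vehicle and siNFYA R1881, in that order. The protein-coding ENST00000356716 averaged 45.1 ± 8.89, 11.3 ± 2.87, 28.8 ± 2.22 and 12.8 ± 4.56 CPM. The protein-coding ENST00000349841 averaged 18.9 ± 1.95, 7.72 ± 1.52, 12.3 ± 1.15 and 5.08 ± 0.0866 CPM. For the nonsense-mediated decay transcript ENST00000602751 the values were 12.6 ± 2.38, 7.03 ± 2.19, 8.76 ± 0.323 and 10.4 ± 5.67 CPM. The interaction was not tested for single transcripts.

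TBRG1, a regulator linked to p53, had 102, 104 and 107 CPM in control vehicle, 378, 388 and 378 in control R1881, 93.7, 92.1 and 90.8 in siNFYA vehicle and 422, 468 and 473 in siNFYA R1881 and an interaction of 0.43 (adjusted p = 0.00125). The anti-proliferative gene BTG1 was at 0.35 (adjusted p = 0.00782) and FNBP1L, a membrane-curving protein gene, at 0.40 (adjusted p = 0.000728), both lower with siNFYA in vehicle (-0.54 and -0.38). SOX9, a transcription factor gene, had 13.7, 14.4 and 10.8 CPM in control vehicle, 24.4, 26.8 and 26.7 in control R1881, 8.09, 8.61 and 8.35 in siNFYA vehicle and 31, 25.6 and 28.4 in siNFYA R1881. Its interaction was 0.76 (adjusted p = 0.0416) and held in 3 of the 12 fits that leave out a library. GALNT18, of the enzyme family that starts O-glycans, was at 0.70 (adjusted p = 0.0341) (4 of 12), SLC19A2, the thiamine carrier, at 0.42 (adjusted p = 0.0233) (7 of 12), and the coactivator NCOA1, 1 called of 23 nuclear receptor cofactors, at 0.29 (adjusted p = 0.03) (6 of 12).

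Lower, beside the groups above, were ADRA2A (an adrenergic receptor, -0.80 (adjusted p = 0.0451)) and CDKN1A (p21, 1 called of 31 p53 targets, -0.35 (adjusted p = 0.0352)). ADRA2A had 15.4, 16.1 and 13.8 CPM in control vehicle, 15.3, 16.5 and 16.2 in control R1881, 13.7, 16.9 and 14.1 in siNFYA vehicle and 9.81, 7.58 and 10.1 in siNFYA R1881, with the siNFYA R1881 libraries apart from the rest. Its call held in 2 of the 12 such fits and that of CDKN1A in 4. Among the called genes named by the rule the lowest value belonged to SLX1A, with 10.9, 4.31 and 4.01 CPM in control vehicle, 21.9, 15.2 and 20.1 in control R1881, 12.8, 20.6 and 7.92 in siNFYA vehicle and 17.1, 3.97 and 7.52 in siNFYA R1881. Its libraries scattered within every group, the copy SLX1B can share its reads, and the value -2.15 (SE 0.503, adjusted p = 0.0416) is uncertain, as is GATD3B (-0.51 (adjusted p = 0.0188)), whose copy is GATD3A.

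Mitochondrially encoded mRNAs, which code for subunits of the respiratory chain and ATP synthase, lay together on the higher side. Of 13 measured, 8 were called higher (0.333% of all genes tested). The values ran from 0.244 to 0.47 with a median of 0.354. MT-CO3 had 2187, 1878 and 1913 CPM in control vehicle, 1753, 1606 and 1666 in control R1881, 3143, 3026 and 2792 in siNFYA vehicle and 3130, 3273 and 3225 in siNFYA R1881. It fell with R1881 under control siRNA (-0.25) and was at 0.10 under siNFYA (adjusted p = 0.0689), an interaction of 0.35 (SE 0.0693, adjusted p = 0.0123). MT-ND4L was at 0.43 (adjusted p = 0.00541), MT-ND5 at 0.37 (adjusted p = 0.03), MT-CO2 at 0.36 (adjusted p = 0.0179), MT-CYB at 0.35 (adjusted p = 0.0162), MT-ND1 at 0.32 (adjusted p = 0.0248), MT-ND4 at 0.31 (adjusted p = 0.03) and MT-ND2 at 0.31 (adjusted p = 0.0348). All 13 were called higher with siNFYA in each treatment (6.67% of all genes in vehicle and 2.63% in R1881), with medians of 0.559 and 0.903. The nuclear-encoded subunits of the same complexes gave 0 called of 54, with a median of 0.0083. The mitochondrial share of all counts was 1.89 ± 0.156% (control vehicle), 1.38 ± 0.0543% (control R1881), 2.81 ± 0.206% (siNFYA vehicle) and 2.57 ± 0.0384% (siNFYA R1881; SD, n = 3), and the share of retained introns given above had the same order of groups; its part in the result was not tested. The calls ranged from 1 (without control R1881 replicate 2) to 12 (without siNFYA vehicle replicate 1, or without siNFYA R1881 replicate 1), with 10 without siNFYA vehicle replicate 3, and there were 0 in a fit of all 17 libraries and in the log2(TPM + 1) fit. The median stayed between 0.276 and 0.402 in the fits that leave out a library.

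No member was called in 23 of the 34 lists. Metabolic lists without a call were cholesterol synthesis and uptake (28 measured, median -0.041), fatty acid oxidation (27, 0.0073), glycolysis (26, -0.109, 22 below 0), the tricarboxylic acid cycle (29, -0.012), polyamines (17, 0.017), purines and pyrimidines (26, -0.089) and the hexosamine pathway and glycosylation (20, 0.012). The fatty acid synthesis list had a median of -0.037. In the stress and secretory lists the medians were -0.044 for endoplasmic reticulum stress and chaperones (32), 0.013 for ER to Golgi transport (31), 0.014 for heat shock proteins (22), -0.021 for hypoxia (23), -0.109 for interferon (37) and 0.032 for autophagy and lysosome (42). All 32 members of the list of endoplasmic reticulum stress and chaperones rose with R1881 under both siRNAs. Immediate early genes (15) had a median of -0.184, KLF and SP factors (18) -0.015, ribosomal proteins (75) 0.022, splicing regulators (33) -0.0064, NF-Y subunits (3) -0.003, nuclear receptor cofactors 0.017 and p53 targets -0.039. Luminal markers (24) had a median of 0.0098 with KLK3 called lower. Basal (2), neuroendocrine (3), stromal (9) and blood or endothelial (2) markers had medians of 0.117, -0.309, 0.012 and 0.46 at levels near the filter, with none called.

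**Figure D3:**
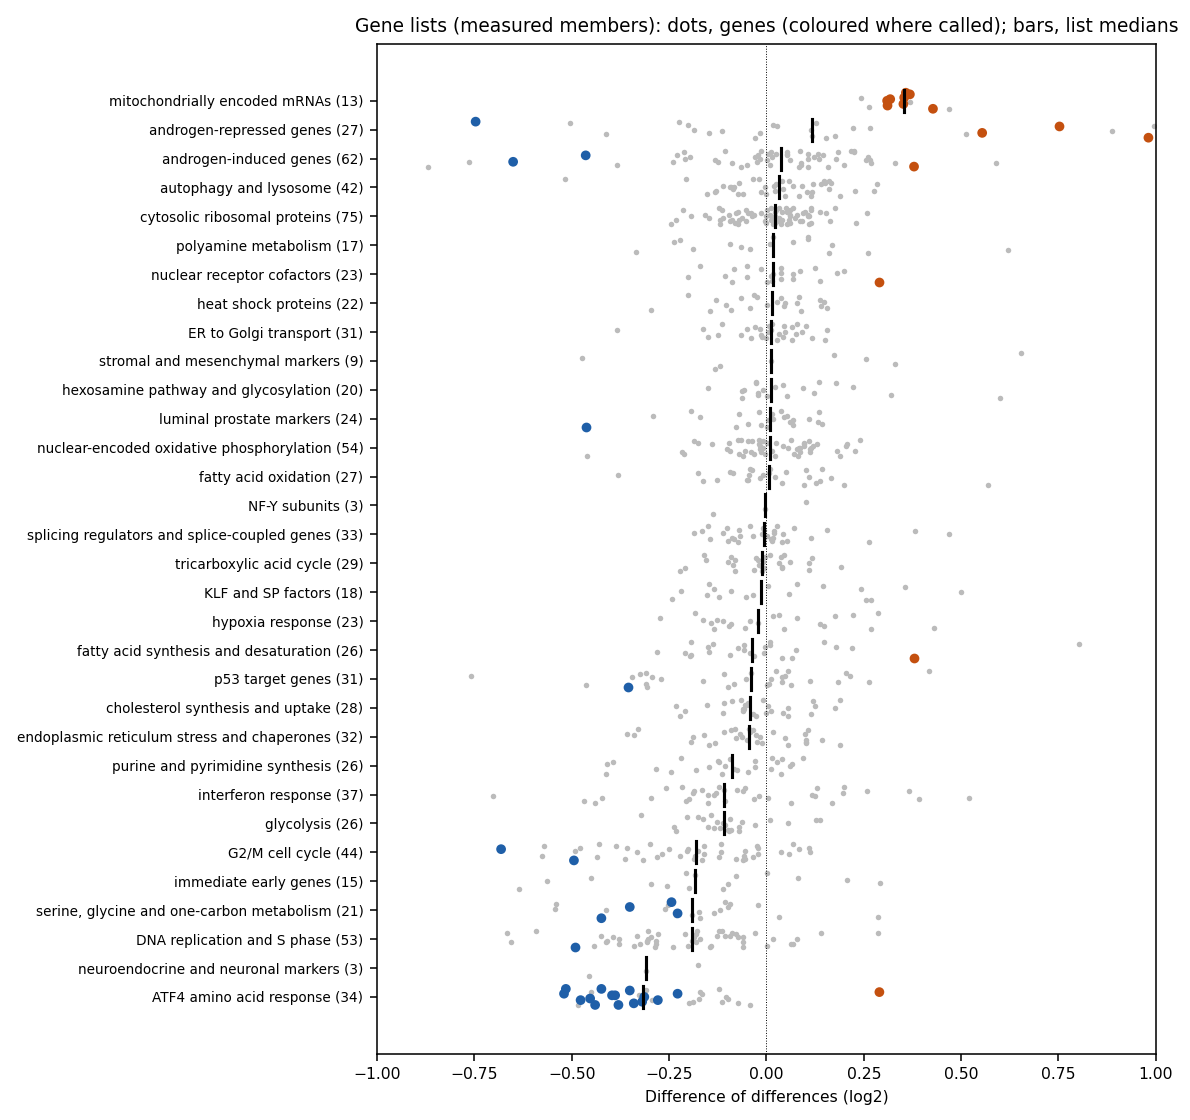
Difference of differences (log2, horizontal axis) for the measured members of the 32 lists with at least 3 of them, ordered by list median (black bars); dots are genes, coloured where called (orange higher, blue lower). 13 members lie beyond the axis ends at 1. The ATF4 list sits at the bottom (median -0.316) and the mitochondrial mRNAs at the top (0.354).

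A separate knockdown gave a comparison with another siRNA pool. The R1881 response under siNFYA was set against that under KLF5 siRNA (KLF5 is a zinc-finger factor), with 2 vehicle and 3 R1881 libraries for siKLF5. Of 12922 genes 86 differed (0.666%), 46 higher (0.356%) and 40 lower (0.31%) with siNFYA. The same siNFYA libraries enter this comparison and the one above, so their values are given side by side. UGT2B15 was at 0.76 (2 SE either side, 0.55 to 0.98; adjusted p = 0.000559), UGT2B17 at 0.50 (adjusted p = 0.00529) and UGT2B11 at 0.76 (adjusted p = 0.00959). MYNN was at 1.03 (adjusted p = 1.01e-05), TBRG1 at 0.49 (adjusted p = 0.000559), ACSL3 at 0.31 (adjusted p = 0.00675), CITED2 at 0.28 (adjusted p = 0.035) and BTG1 at 0.44 (adjusted p = 0.00298). CAMK2N1 was at -0.65 (adjusted p = 0.0176), ADRA2A at -1.03 (adjusted p = 0.0115), KIF2C at -0.70 (adjusted p = 0.0293) and CDK1 at -0.42 (adjusted p = 0.0352). All of these were called.

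KLK3 rose by 6.58 with R1881 under siKLF5, and the difference from siNFYA was -1.08 (2 SE either side, -1.26 to -0.89; adjusted p = 1.7e-07). For KLK2 it was -1.21 (2 SE either side, -1.58 to -0.85; adjusted p = 0.00111). Of the 34 ATF4-list members 3 were lower with siNFYA than with siKLF5 (0.31% of all genes) and none higher (0.356%), with a median of -0.201. DDIT4 was at -0.37 (adjusted p = 0.014) and MTHFD2 at -0.31 (adjusted p = 0.0334). SLC1A5 was at -0.21 (2 SE either side, -0.34 to -0.088; adjusted p = 0.134) and SLC7A11 at -0.22 (2 SE either side, -0.38 to -0.056; adjusted p = 0.3), neither called. In the G2/M list 7 of 44 were lower (median -0.336) and in the DNA replication list 5 of 53 (median -0.276), against 0.31% of all genes. The mitochondrial mRNAs gave 0 called of 13, with a median of 0.0063; MT-CO3 was at 0.012 (2 SE either side, -0.19 to 0.21; adjusted p = 0.987), and LTN1 at 0.14 (2 SE either side, -0.092 to 0.38; adjusted p = 0.741). GLUL at 0.23 (adjusted p = 0.106) and SLC19A2 at -0.056 (adjusted p = 0.894) were not called either.

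**Figure D4:**
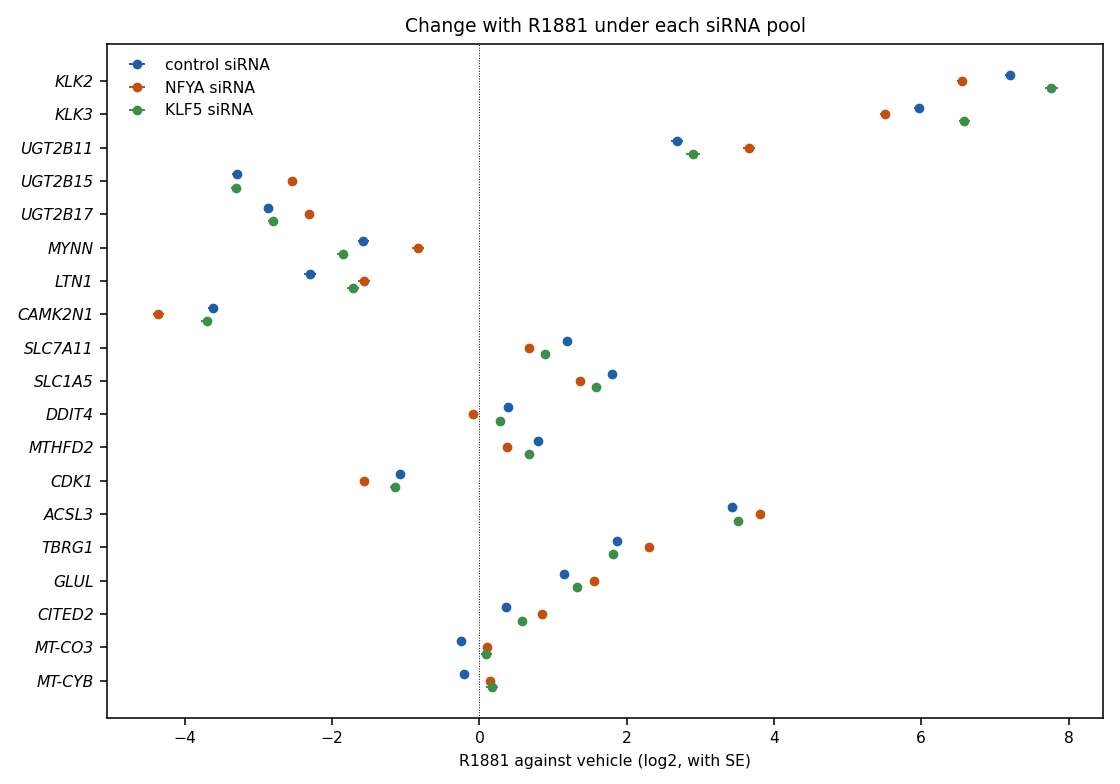
Change with R1881 against vehicle (log2, with SE) of 19 genes under control siRNA (blue), NFYA siRNA (orange) and KLF5 siRNA (green). For UGT2B15, UGT2B17 and UGT2B11 the orange dot is apart from the other 2, for KLK3 and KLK2 the 3 dots lie apart, and for the mitochondrial MT-CO3 and MT-CYB the blue dot is apart.

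The siKLF5 libraries also sorted the genes by their R1881 response without use of the 12 libraries. Among 3633 genes that rose with R1881 there, 16 were called higher and 34 lower in the interaction (1.38% called). Among 3483 that fell, 11 were higher and 11 lower (0.632%), and among 5255 that were not called, 14 and 4 (0.343%). Within genes that rose at least 2-fold, 9 were higher and 9 lower of 872 (2.06%). Within genes that fell at least 2-fold, 7 were higher and 7 lower of 1071 (1.31%). Over all genes tested 0.722% were called. The medians of the 3 classes were -0.0049, -0.03 and -0.014.

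Of the 91 called genes, all kept their sign in the 12 fits that each leave out a library, and 30 were called in every one. Those 30 held UGT2B11, UGT2B15, UGT2B17, CITED2, GLUL, ACSL3, TBRG1, MYNN, LTN1, FNBP1L, BTG1, MT-ND4L and the ATF4-list member SLC38A2 among the higher genes. Among the lower they held SLC1A5, SLC7A11, DDIT4, MTHFD2, PSAT1, SLC7A1, XPOT, GARS, PCK2, TRIB3, CDK1, KLK3 and CAMK2N1.

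**Figure D5:**
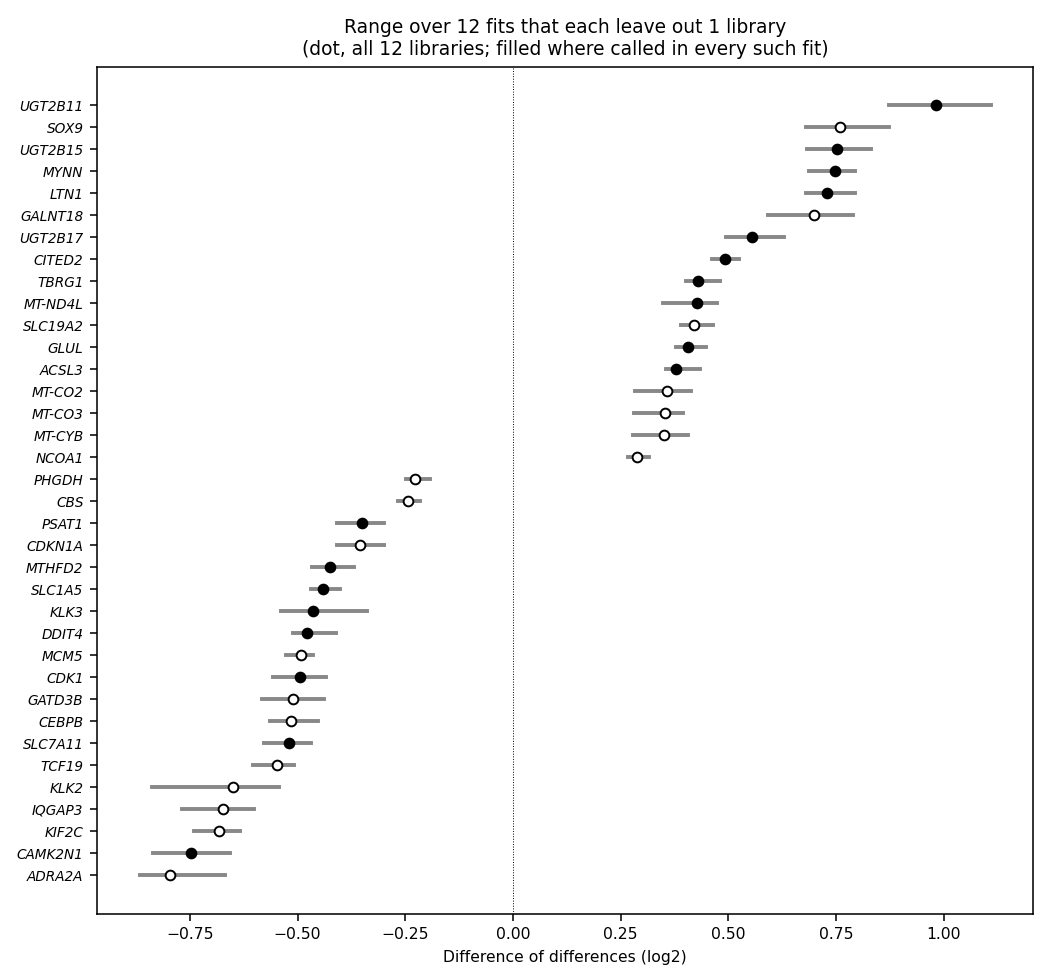
Difference of differences (log2) of 36 genes named by the rule and called (SLX1A left off). Dots are values from all 12 libraries and lines the range over the 12 fits that each leave out 1 library. The 18 filled dots were called in every such fit, and no line crosses 0.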

How the data were processed

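RNA of 12 LNCaP libraries was measured after stranded library preparation, per the labels' protocols. FastQC, Trimmomatic, kallisto, DESeq2 and the GRCh38 genome are named in the submitters' processing notes, with no version or role. The authors deposited estimated counts per gene (34912 genes, 34846 of them in GENCODE v29), and a joined table that holds, per the file headers and its values, the same estimated counts and TPM per gene and transcript with another number, which has no name and was not used. The name of the deposited count table mentions TPM, but its values match the estimated counts within 0.00005.

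Counts were rounded to whole numbers, filtered with filterByExpr (12601 genes left), scaled by TMM and fitted in edgeR (version 4.0.16, under R 4.3.3) with 1 coefficient per group, using its quasi-likelihood F test. The interaction was (siNFYA R1881 minus siNFYA vehicle) minus (control R1881 minus control vehicle). Adjustment of p-values was by Benjamini-Hochberg over all genes tested, with calls at adjusted p under 0.05; the SE is the log2 value divided by the root of F. CPM use TMM-scaled library sizes of the deposited counts. The siKLF5 comparison used 1 fit of 17 libraries; siKLF5 vehicle replicate 1 was not analysed here. Alternatives were DESeq2 1.42.0, other scalings and filters, voom with quality weights and limma-trend on log2(TPM + 1) (limma 3.58.1), and each library left out. The test was checked on simulated data. Promoter sequences are from RefSeq (GRCh38.p14). Tables and figures used Python 3.11.15, pandas 2.3.3 and matplotlib 3.10.9. Replicate numbers only name libraries.

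Members and lists were chosen with earlier results of these data known. Named genes are a set chosen in every case (NFYA, NFYB, NFYC, KLF5, KLK3, KLK2, FKBP5, TMPRSS2 and others not reported here), and, among called protein-coding genes with at least 5 CPM in the highest group, the 12 largest positive and 12 largest negative differences. To these come the 6 smallest adjusted p at 50 CPM or more and up to 4 called members per list with the smallest adjusted p. Another 20 called genes, among them the rest of the ATF4 list and of the mitochondrial mRNAs, and the UGT2B relatives, were named after their values were seen. Several lists share genes.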

Additional observations from a re-analysis of the deposited data

Results flagged for a closer look

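The results below met 1 criterion, a called difference between 2 siRNAs in the change with R1881 (edgeR's quasi-likelihood test, Benjamini-Hochberg adjustment over all genes). No test for a single outlying value was made within the groups of 3 libraries. Values are differences in the log2 change with R1881, siNFYA minus control.

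In the ATF4 amino acid response the values were -0.52 for SLC7A11, -0.52 for CEBPB, -0.48 for DDIT4, -0.45 for TRIB3, -0.44 for SLC1A5, -0.42 for MTHFD2, -0.40 for STC2, -0.39 for SLC7A1, -0.38 for GDF15, -0.35 for PSAT1, -0.34 for PCK2, -0.32 for XPOT, -0.31 for GARS, -0.28 for SLC3A2, -0.23 for PHGDH and 0.29 for SLC38A2. Other amino acid genes gave -0.24 for CBS, -0.26 for IARS and -0.24 for PYCR1. In the cell division lists the values were -0.68 for KIF2C, -0.49 for CDK1 and -0.49 for MCM5. The p53 target list gave -0.35 for CDKN1A. Genes of the androgen lists gave -0.75 for CAMK2N1, -0.65 for KLK2, -0.46 for KLK3, 0.38 for ACSL3, 0.55 for UGT2B17, 0.75 for UGT2B15 and 0.98 for UGT2B11. Mitochondrially encoded mRNAs gave 0.31 for MT-ND2, 0.31 for MT-ND4, 0.32 for MT-ND1, 0.35 for MT-CYB, 0.35 for MT-CO3, 0.36 for MT-CO2, 0.37 for MT-ND5 and 0.43 for MT-ND4L. The remaining named genes gave -2.15 for SLX1A, -0.80 for ADRA2A, -0.67 for IQGAP3, -0.55 for TCF19, -0.51 for GATD3B, -0.42 for LMNB2, -0.37 for LMNB1 and -0.36 for SLC41A1 on the lower side and 0.29 for NCOA1, 0.35 for BTG1, 0.40 for FNBP1L, 0.41 for GLUL, 0.42 for SLC19A2, 0.43 for TBRG1, 0.49 for CITED2, 0.70 for GALNT18, 0.73 for LTN1, 0.75 for MYNN and 0.76 for SOX9 on the higher side.

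Against siKLF5 the lower responses under siNFYA were -1.21 for KLK2, -1.08 for KLK3, -1.03 for ADRA2A, -0.70 for KIF2C, -0.65 for CAMK2N1, -0.42 for LMNB1, -0.42 for CDK1, -0.37 for DDIT4 and -0.31 for MTHFD2, and the higher ones were 1.03 for MYNN, 0.82 for GALNT18, 0.76 for UGT2B11, 0.76 for UGT2B15, 0.50 for UGT2B17, 0.49 for TBRG1, 0.44 for BTG1, 0.39 for FNBP1L, 0.31 for ACSL3 and 0.28 for CITED2.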

How the results depend on the processing

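The interaction was called in 91 genes, and in 43 to 264 when 1 of the 12 libraries was left out. The fewest came without control R1881 replicate 2 (43), siNFYA R1881 replicate 3 (47) or siNFYA vehicle replicate 2 (49), with 57 without control vehicle replicate 2 or control R1881 replicate 3, and the most without siNFYA R1881 replicate 1 (264). Without the low-count filter there were 326, with voom and quality weights 159, in the log2(TPM + 1) fit 1, and in a fit of all 17 libraries, chosen after seeing the data, 59; the cause was not tested. DESeq2 called 111, but gave an adjusted p for only 3562 genes; 70 of the 91 had one and 67 of these were called. The RLE size factors gave 92, library totals 84 and a mean of at least 5 CPM 127. Higher calls made up 46.15% of the 91, 56.76% with DESeq2, 57.61% with RLE, 61.90% with library totals, 69.81% without siNFYA vehicle replicate 3 (67 of the 91 kept) and 68.75% without the gene AC010970.1 (72 kept, chosen after seeing the data). Over the 6 alternatives of count test, scaling or filter with all 12 libraries (DESeq2 where it gave an adjusted p, RLE, library totals, no filter, at least 5 CPM, and voom), 74 of the 91 were called in each. The called genes named by the rule kept their sign in every alternative. Of the genes not called, NFYA (up to 0.035, without siNFYA vehicle replicate 3), FKBP5 (down to -0.057, without control vehicle replicate 1), KLF5 (up to 0.37) and TMPRSS2 (-0.18, both in the log2(TPM + 1) fit) changed sign in at least 1.

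The response under siNFYA differed from that under siKLF5 in 86 genes, in 92 with library totals, in 70 with DESeq2 (48 higher and 22 lower, against 46 and 40), and in 39 (without siKLF5 vehicle replicate 3) to 129 (without siKLF5 vehicle replicate 2) when a library was left out. It was 47 without siNFYA R1881 replicate 3, 49 without siKLF5 R1881 replicate 3 and 54 without siKLF5 R1881 replicate 2. Where a fit left 1 siKLF5 vehicle library, that library was assumed to vary like the other groups. No paired analysis was possible because the libraries are numbered through in the labels and no 2 of them share a number. At these depths 3 counts in a library stand for 0.468 to 0.679 CPM.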
